A study of Mus musculus with 2 samples.

Results

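Dendritic cells (DCs) were followed in orthotopic mouse glioblastoma treated with vehicle or Xevinapant. They were 62 of the 54574 cell barcodes that passed quality filters, or 0.114% (exact 95% binomial interval 0.0871 to 0.146). A barcode was chosen by its own transcripts: at least 2 of the 6 markers Flt3, Xcr1, Clec9a, Cd209a, Ccr7 and Zbtb46 had to be detected together with Ptprc or Cd74. It could carry no UMI (a count of 1 RNA molecule) of Cd3e, Cd3g, Cd79a, Cldn5 or P2ry12, and no more than 3 UMIs of the tumor genes Olig1, Olig2 and Ptprz1 summed. The levels of these genes therefore describe the selection and are not findings.

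The tumors were grown from mouse glioblastoma stem cells (mGSC), a single line with Trp53+/- and Nf1+/- genotype, placed in the striatum of immunocompetent C57BL/6J mice. All mice carried the same line and were bought as young adults. One group received vehicle and the other Xevinapant, a SMAC mimetic that antagonizes the inhibitor of apoptosis proteins (IAPs), orally at 50 mg/kg/day for 7 days, and tumors of 4 mice per group were profiled with a probe-based single-cell assay. The labels name 1 pooled library per group, deposited as 4 count matrices that carry no mouse name.

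DCs take up antigen and present it to T cells. Conventional type 1 DCs (cDC1) carry Xcr1 and Clec9a, depend on Irf8 and Batf3 and excel at presenting tumor antigen on MHC class I, whereas conventional type 2 DCs (cDC2) carry Cd209a or Sirpa and mainly present on MHC class II. Either type, once matured, switches on the chemokine receptor Ccr7, which guides it to the draining lymph node, and plasmacytoid DCs (pDCs) are a separate lineage that makes interferon. The non-canonical NF-kB pathway, which cIAP1 (Birc2) and cIAP2 (Birc3) hold back, is one of the pathways that run in mature DCs.

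The matrices held 4505 to 14728 barcodes and 71835789 to 300206053 UMIs each, with medians of 7621 to 13360 UMIs per barcode kept. Matrices of a pool whose tumor barcodes differed by less than 1.5 times the noise of sampling cells were counted as 1 sample, which left 5 samples: vehicle 1 (matrices 1 and 3), vehicle 2, vehicle 3, Xevinapant 1 (matrices 1 and 2) and Xevinapant 2 (matrices 3 and 4). The study's methods speak of samples of individual mice, but no label ties a matrix to a mouse, so the spread between samples may be partly technical, and the DC shares are also given with each matrix as a sample. The pools carried different batch dates and different RNA labels (total RNA for vehicle, polyA RNA for Xevinapant), so that batch and treatment cannot be told apart. Within the vehicle pool 4210 droplet barcodes occurred in more than 1 matrix, among them those of 4 DCs, and within the Xevinapant pool 3257, among them those of 10 DCs. The files do not carry the study's doublet calls. Across the pools 1413 full barcodes were the same, 1 of them that of a DC.

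Zbtb46, a transcription factor of conventional DCs, was detected in 58 of the 62 DCs, Flt3 (the Flt3 ligand receptor) and Clec9a (a receptor for dead cells) in 29 each, Ccr7 in 20, Xcr1 (the receptor for Xcl1) in 15 and Cd209a (a C-type lectin) in 13. Among 1500 macrophages, gated on complement C1q genes and a macrophage marker, no more than 0.6% had a UMI of Flt3, Xcr1, Clec9a, Cd209a or Ccr7, at a median of 3218 UMIs per barcode against 3850.5 in DCs. Barcodes that met the DC rule were kept out of the macrophages, so these low shares were partly set by the selection. Zbtb46 was found more widely. It was detected in 3.07% of macrophages but in 55.1% of 26448 tumor barcodes, which were deeper (median 16661.5 UMIs), although its level was lower there, at 56.3 CPM (UMIs of a gene per 1000000 UMIs) against 440 CPM in DCs. Without Zbtb46, 34 of the 62 DCs still had at least 2 of the 5 remaining markers.

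The threshold lay in a steep part of the data. Barcodes that met every other condition but had a single marker numbered 223, of which 181 had Zbtb46 as that marker, and together they held 4568 CPM of the class II genes H2-Aa, H2-Ab1 and H2-Eb1, which the rule did not use. The 32 DCs with 2 markers held 26456 CPM of these genes, the 20 with 3 markers held 35441 CPM and the 10 with 4 markers held 41329 CPM. C1q genes went the other way across the threshold, from 2687 CPM with a single marker to 1663 CPM with 2. With the genes of the rule left out of the lists, 12 of 13 cDC1 genes, 17 of 19 genes of mature Ccr7 DCs and 7 of 9 general DC genes were at a higher level in DCs than in macrophages, monocytes, microglia and tumor barcodes, as were 9 of 14 cDC2 genes. With the genes that the rule excluded or limited also left out, none of 11 monocyte, 12 macrophage, 8 microglia, 10 neutrophil or 9 tumor genes was, against 3 of 8 T cell, 1 of 9 NK cell, 2 of 9 B and plasma cell and 4 of 6 endothelial genes. Macrophages, monocytes and microglia were gated on genes of their own lists, so their counts of none were partly built in. No neutrophil, T cell, NK cell, B cell or endothelial class was gated, so those lists lack their own class for comparison. The contrast between these counts is therefore no support for the label. Since all of these genes were read from the barcodes that were selected, no test was made of them.

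The DCs differed among themselves in antigen presentation genes. The 3 class II genes H2-Aa, H2-Ab1 and H2-Eb1 took a median of 2.75% of a DC's UMIs, from 0 to 11.3%, and exceeded 1% in 41 of 62 DCs. They were below 0.1% in 12 DCs, in 8 of which they were not detected at all. A pair of DCs had many UMIs of the collagen genes Col1a1, Col1a2 and Col3a1, which mark fibroblasts. One, in Xevinapant 1, held 3246 collagen UMIs among 24963, only 3 UMIs of Cd74 and the 3 class II genes together and 119 of C1q. The other, in vehicle 3, held 101 collagen UMIs among 9602, just above the cutoff of 100, with 113 of C1q. Unlike the first, it held 226 UMIs of Cd74 and the 3 class II genes together. These collagen members made up 23.4% and 37.6% of the DC UMIs of their samples, so the levels by subset below leave them out.

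**Figure D1:**
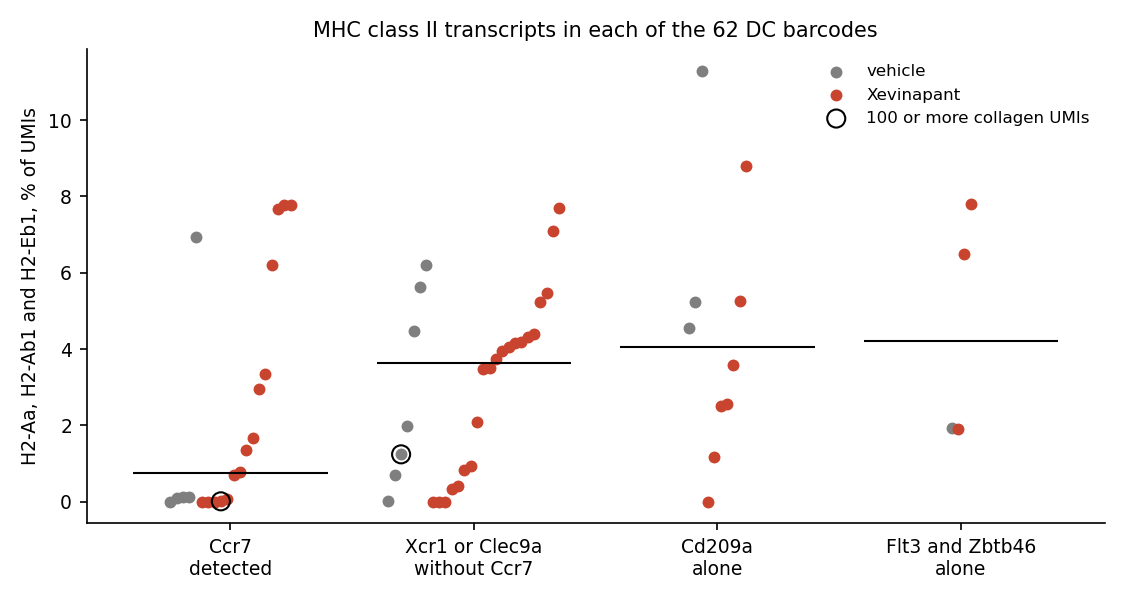
Each point is 1 of the 62 DC barcodes; the y axis gives the share of its UMIs that came from H2-Aa, H2-Ab1 and H2-Eb1 in percent, in 4 marker subsets on the x axis, with the median as a line, vehicle in grey, Xevinapant in red and a ring around the 2 barcodes with 100 or more collagen UMIs. Barcodes with Ccr7 spread from 0 to 7.78% with a median of 0.747%, and the other subsets have medians of 3.62% to 4.22%.

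By the markers that selected them the DCs fell into 4 subsets, and since each was cut from the same barcodes that are described, no test was made between them. Ccr7 was detected in 20 DCs (32.3%), Xcr1 or Clec9a without Ccr7 in 28 (45.2%), Cd209a without any of these in 10 (16.1%), and 4 (6.45%) had only Flt3 and Zbtb46. Clustering on all variable genes, with 1000 genes and a Leiden resolution of 0.6, gave 3 groups that followed this split in part. A cluster of 19 DCs, 18 of them with Xcr1 or Clec9a, was cDC1-like, with 8 of its 10 leading genes from the cDC1 list. A cluster of 18, 16 of them with Ccr7, was Ccr7 DC-like, with 5 of 10 from that list. The 8 include Xcr1 and the 5 include Ccr7, so both names rest partly on genes that selected the DCs. The third cluster of 25 mixed all 4 subsets and stayed unnamed. In it 8 cDC2 genes were raised over the other DCs, but so were 10 macrophage, 6 pDC and 5 monocyte genes. Its leading genes Col1a2, Col1a1, Col3a1, Sparc and Bgn came mainly from the collagen member of Xevinapant 1.

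DCs with Ccr7 carried the genes of a mature, migratory state. With the collagen member left out, 19 remained, and in them the 20 genes of the Ccr7 DC list (Ccr7 among them) summed to 24882 CPM, against 1186 CPM in the 27 DCs with Xcr1 or Clec9a and 676 CPM in the 10 with Cd209a. All 20 genes, or 19 of 19 without Ccr7 itself, had their highest level there. Fscn1, the actin-bundling protein of DC dendrites, reached 3376 CPM in 12 of 19 DCs against 26.5 CPM in 3 of 27. The interleukin-4-induced amino acid oxidase Il4i1 reached 2347 CPM (exact Poisson interval 1982 to 2760, counting error only) in 17 of 19, against 124 CPM (67.7 to 208) in 3 of 27 and no UMI in the 10 Cd209a DCs. The costimulatory genes Cd83 (15 of 19 DCs) and Cd80 (12 of 19) and the checkpoint ligand Cd274, which encodes PD-L1 (13 of 19), were found more often there than in Xcr1 or Clec9a DCs, where 5, 4 and 2 of 27 carried them. The NK cell list summed to 1045 CPM in the 19 DCs with Ccr7, against 133 CPM with Xcr1 or Clec9a and 329 CPM with Cd209a. Of its 9 genes, 6 were highest with Ccr7. Its median per DC with Ccr7 was 0 CPM, and the highest DC held 11631 CPM. The part of NK cell transcripts in this subset was not tested.

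Chemokines and cytokines were also uneven. Ccl5, a T cell attractant, reached 5304 CPM in 16 of 19 DCs with Ccr7 and was found with 1 UMI in 1 of the 27 DCs with Xcr1 or Clec9a. Ccl22, which attracts regulatory T cells through Ccr4, reached 1029 CPM (792 to 1314) in 11 of 19 against 26.5 CPM (5.47 to 77.6) in 2 of 27. Cxcl16 was detected in 16 of 19 against 8 of 27. Il12b, a subunit of interleukin-12, was found in 7 of 19 at 1350 CPM and in 1 of 27, whose single DC held all 39 of that subset's UMIs. Its levels thus rested on few cells in both subsets.

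The NF-kB list, 18 genes of the canonical and non-canonical pathways, summed to 9548 CPM in DCs with Ccr7, 2681 CPM in those with Xcr1 or Clec9a and 2687 CPM in those with Cd209a, and 14 of its 18 genes were highest with Ccr7. The inhibitor Nfkbia was detected in 18 of 19 DCs with Ccr7 against 9 of 27, the precursor Nfkb2 in 16 against 13, its partner Relb in 15 against 7, and Map3k14, the kinase NIK that cIAPs keep low as a protein, in 16 of 19 at 1318 CPM against 7 of 27. Traf1, an adaptor that binds cIAPs, was at 1945 CPM in 16 of 19 against 327 CPM in 10 of 27. Birc3 itself was at 579 CPM (405 to 801) in 13 of 19 against 106 CPM (54.9 to 185) in 6 of 27, and Birc2 at 273 CPM (159 to 438) in 9 of 19 against 17.7 CPM (2.14 to 63.9) in 2 of 27. Xiap was sparse, with 1 DC in 19 and 4 in 27. Of the 3 targets of Xevinapant, Birc2 and Birc3 were thus at their highest level in DCs with Ccr7.

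Because these genes moved together across the subsets, promoters of 3 of them are shown: Nfkb2, a member of the pathway, Birc3, a target of the drug, and Ccl22, a chemokine. Sequences are from RefSeq on build GRCm38.p6 and run 5′ to 3′ on the gene's strand from 250 bases before to 50 bases after the transcription start, for Nfkb2 at chr19:46304487-46304786 (plus strand), for Birc3 at chr9:7873121-7873420 (minus strand) and for Ccl22 at chr8:94745434-94745733 (plus strand). Capitals mark matches to the 10-base NF-kB motif GGGANNNNCC or its reverse complement GGNNNNTCCC.
Nfkb2: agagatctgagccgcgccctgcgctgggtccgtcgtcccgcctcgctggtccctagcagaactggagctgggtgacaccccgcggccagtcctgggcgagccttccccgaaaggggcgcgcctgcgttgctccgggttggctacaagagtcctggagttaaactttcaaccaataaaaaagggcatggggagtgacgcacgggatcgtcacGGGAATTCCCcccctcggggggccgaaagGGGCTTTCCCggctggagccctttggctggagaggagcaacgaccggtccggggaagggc
Birc3: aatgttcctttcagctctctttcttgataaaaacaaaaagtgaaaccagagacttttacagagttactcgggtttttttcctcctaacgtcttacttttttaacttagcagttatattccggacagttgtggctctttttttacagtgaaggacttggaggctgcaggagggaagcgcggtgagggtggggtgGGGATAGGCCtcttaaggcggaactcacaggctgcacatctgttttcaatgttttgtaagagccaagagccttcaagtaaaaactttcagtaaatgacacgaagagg
Ccl22: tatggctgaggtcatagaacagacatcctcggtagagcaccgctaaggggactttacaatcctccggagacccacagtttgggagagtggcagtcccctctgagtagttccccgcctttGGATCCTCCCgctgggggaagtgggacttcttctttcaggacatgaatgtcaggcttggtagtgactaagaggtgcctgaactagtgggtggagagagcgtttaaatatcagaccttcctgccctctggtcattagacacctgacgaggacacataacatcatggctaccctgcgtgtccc
Nfkb2 held 2 matches, Birc3 and Ccl22 held 1 each. Of the 37 measured genes on the NF-kB and Ccr7 DC lists, 28 had a promoter in the table, and 12 of these (42.9%) held a match, against 5528 of 27025 (20.5%) promoters of the same length. These matches are descriptions of sequence. Binding was not measured.

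DCs with Xcr1 or Clec9a carried the cDC1 genes. The 15 genes of that list, Xcr1 and Clec9a included, summed to 14439 CPM in these 27 DCs, 4211 CPM in those with Ccr7 and 2514 CPM in those with Cd209a, and 14 of the 15 were highest there, or 12 of 13 without those 2. Irf8, the transcription factor of the cDC1 lineage, was at 2663 CPM in 23 of 27 against 772 CPM in 12 of 19 with Ccr7 and 52.0 CPM in 2 of 10 with Cd209a. Wdfy4, which is needed for cross-presentation, was at 1442 CPM in 22 of 27, 241 CPM in 3 of 19 and 399 CPM in 7 of 10. The lysosomal hydrolase Naaa was at 2318 CPM in 20 of 27 and at 64.3 CPM in 1 of 19. Tlr3, the sensor of double-stranded RNA, was found in 11 of 27 and Tlr11 in 8 of 27, and neither had a UMI in DCs with Ccr7. Batf3 was the exception, being found in 13 of 19 DCs with Ccr7 (579 CPM) and 15 of 27 with Xcr1 or Clec9a (265 CPM).

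DCs with Cd209a alone carried cDC2 genes. Without Cd209a, which defines the subset, 9 of 14 genes of the list were highest in these 10 DCs. Sirpa was detected in 9 of 10 (693 CPM), the lectin Clec10a in 7 of 10 (503 CPM against 61.9 CPM in 2 of 27), and S100a4, which monocytes also express, in 8 of 10 at 2895 CPM. Mgl2, another lectin, was at 1664 CPM but in only 4 of 10, with 56 of its UMIs in 1 DC. The class II transactivator Ciita was detected in 8 of 10, against 18 of 27 and 4 of 19 with Ccr7, and the peptide loader H2-DMa likewise in 9 of 10, 20 of 27 and 5 of 19. The macrophage list summed to 4195 CPM in these 10 DCs, against 301 CPM in those with Xcr1 or Clec9a, 1656 CPM in those with Ccr7 and 44122 CPM in gated macrophages. Of its 12 genes, 10 were highest here of the 3 subsets, beside the 9 of 14 cDC2 genes. The monocyte list summed to 5374 CPM here against 2787 CPM with Xcr1 or Clec9a, 691 CPM with Ccr7 and 11898 CPM in gated monocytes, with 6 of its 11 genes highest here of the 3 subsets. Its median per DC was 1467 CPM here, 1518 CPM with Xcr1 or Clec9a and 145 CPM with Ccr7. A typical DC here was thus not higher than one with Xcr1 or Clec9a. The cDC2 list itself was at 3564 CPM in gated monocytes and 3283 CPM over all DCs. The part of macrophage and monocyte transcripts in these levels was not tested.

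A few DCs with Clec9a had the genes of another lineage. Of 12 pDC genes, 1 DC of vehicle 1 detected 10 and 1 of vehicle 3 detected 11, with 19 and 16 UMIs of Siglech, 18 and 3 of Ly6d and 8 and 11 of Klk1. They had entered with Clec9a and Cd209a and with Flt3 and Clec9a, and neither had Zbtb46. A DC of Xevinapant 2 detected 7 of the 12, and 2 more Xevinapant DCs detected 5. Together, the pair from vehicle samples made up 2 of 16 vehicle DCs, so the vehicle values of pDC genes rest on them.

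**Figure D2:**
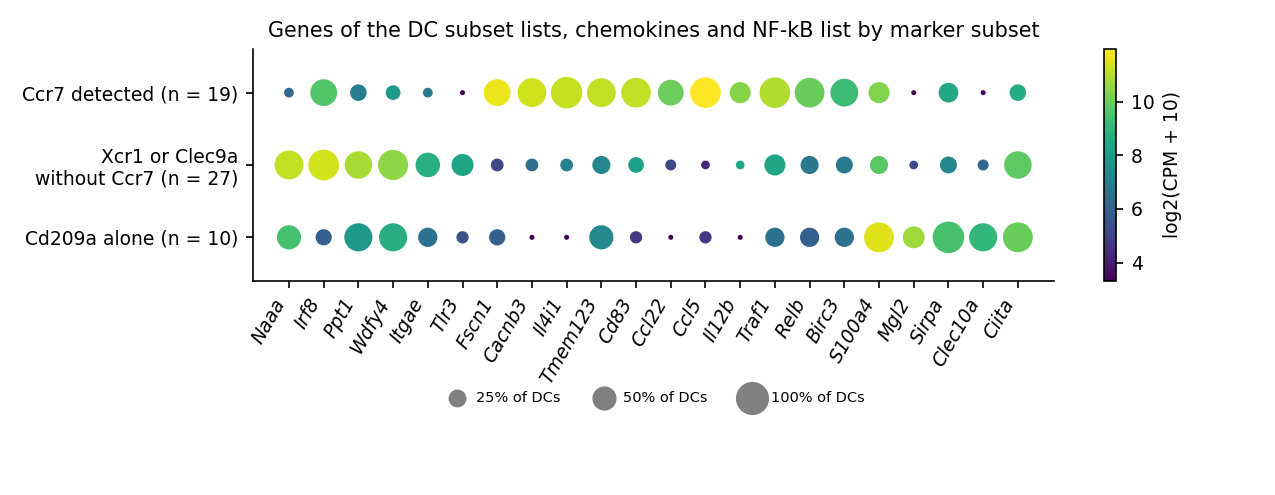
Columns are 22 genes and rows the 3 larger marker subsets without the 2 collagen members (n = 19, 27 and 10 DCs); colour gives log2(CPM + 10) over the summed UMIs of the subset and point size the percent of DCs with a UMI. The first 6 genes are highest with Xcr1 or Clec9a, the block from Fscn1 to Birc3 with Ccr7, and the last 5 with Cd209a.

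The first question was whether DCs were more frequent after Xevinapant. In vehicle samples 7 of 9079, 2 of 7135 and 7 of 14310 barcodes were DCs, or 0.0771%, 0.028% and 0.0489%. In Xevinapant samples 22 of 8868 and 24 of 15182 were, or 0.248% and 0.158%. Both Xevinapant samples lay above all vehicle samples, with means of 0.203% ± 0.0636 (SD, n = 2) and 0.0513% ± 0.0246 (SD, n = 3), a ratio of 3.95. An exact two-sided permutation test over samples gave p = 0.1, the smallest p that 3 against 2 samples allow. The matrices behind a sample were not always close, since matrices 1 and 3 of vehicle 1 held 6 and 1 DCs, while the Xevinapant matrices held 11, 11, 12 and 12. With each matrix counted as 1 sample the exact permutation test gave p = 0.0286, and p = 0.257 for the share of immune barcodes. This counts matrices that were joined for their likeness as independent, so these values do not replace those over samples.

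Immune barcodes also took a larger share. They were those with Ptprc and no more than 3 tumor UMIs, plus the 13 DCs without a Ptprc UMI. They were 3.84%, 2.3% and 2.7% of barcodes in vehicle samples and 10.7% and 5.22% in Xevinapant samples. Among immune barcodes, DCs were 2.01%, 1.22% and 1.81% in vehicle samples and 2.32% and 3.03% in Xevinapant samples, again without overlap but with a ratio of 1.59 (1.68% ± 0.41, n = 3, against 2.68% ± 0.502, n = 2; exact permutation p = 0.1). The exact binomial intervals of these shares overlapped for every pair of samples, reaching from 0.81 to 4.09% in vehicle 1 and from 1.95 to 4.48% in Xevinapant 2. With each barcode thinned to 3000 UMIs, so that markers are read at 1 depth, the shares among immune barcodes averaged 1.72% and 1.87% and overlapped, as did the shares of all barcodes, at 0.0454% and 0.115% (exact permutation p = 0.3). Shallower barcodes were left out there, and 11 barcodes in vehicle and 19 in Xevinapant samples still met the rule. Without the limit on tumor UMIs, vehicle 3 gained 19 barcodes and had the largest share among immune barcodes, 6.42%, and that difference overlapped too (exact permutation p = 0.9).

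**Figure D3:**
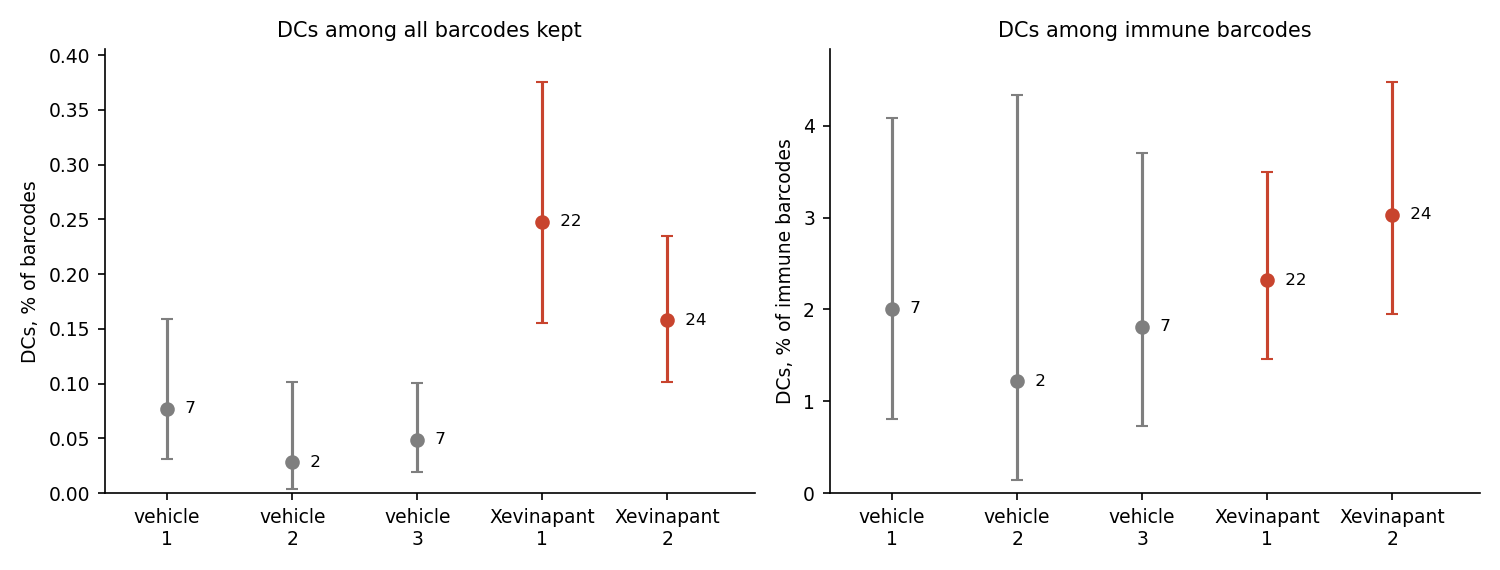
Points give the percent of DCs among all barcodes kept (left) and among immune barcodes (right) in each of the 5 samples on the x axis, with exact 95% binomial intervals as bars and the number of DCs beside each point. Both Xevinapant samples lie above the 3 vehicle samples in both panels, and the intervals overlap on the right.

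Differences in the make-up of the DCs were smaller than the spread between samples, which with 2 to 7 DCs per vehicle sample was wide. Xcr1 or Clec9a was detected in 5 of 7, 0 of 2 and 3 of 7 vehicle DCs and in 11 of 22 and 13 of 24 Xevinapant DCs, on average 38.1% ± 36.0 (SD, n = 3) and 52.1% ± 2.95 (SD, n = 2; exact permutation p = 0.7). Ccr7 was detected in 2 of 7, 1 of 2 and 2 of 7 against 9 of 22 and 6 of 24, on average 35.7% ± 12.4 and 33.0% ± 11.2 (n = 3 and 2; exact permutation p = 0.8). Cd209a alone was found in 1 of 7, 0 of 2 and 2 of 7 against 3 of 22 and 4 of 24, on average 14.3% ± 14.3 and 15.2% ± 2.14 (n = 3 and 2; exact permutation p = 0.9). The sign of each of these 3 differences turned when a single sample was left out or a definition changed.

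Gene levels within DCs were then compared between treatments on UMIs summed per sample. These sums were small in vehicle, at 30843, 7957 and 25506 UMIs, against 106682 and 122318 after Xevinapant, and no vehicle sample reached the 10 DCs that had been set as a minimum, so all samples were used. Of 559 genes with enough UMIs, none passed an adjusted p of 0.05 in either direction (edgeR's quasi-likelihood test with Benjamini-Hochberg adjustment), which is a background of 0.0% for every list below. At an unadjusted p under 0.05 there were 11 higher and 11 lower, and DESeq2 also called none, with 15 and 23. In simulated sums of the same sizes, 200 of 559 genes were changed. The test recovered none of those changed 2-fold, 52% of those changed 4-fold and 92% of those changed 8-fold. Unchanged genes gave 0, 1 and 7 false calls. Differences of 2-fold were thus not detectable at this depth. Recovery with fewer changed genes was not simulated, so these shares need not hold for the data. The sums cannot tell a change within DCs from a change in which DCs were sampled. A gene could also enter the test through the samples of a single group where it was high, which bears on every direction given below.

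The genes with the smallest p are given as values only. Ahnak, a large scaffold protein, was at 227, 0 and 314 CPM in vehicle samples and at 956 and 1349 CPM after Xevinapant (log2 difference 2.37 ± 0.69 SE, edgeR adjusted p = 0.999). The calcium-binding protein S100a4 was at 519, 251 and 392 CPM against 1294 and 2077 CPM (2.02 ± 0.64). Anxa2, S100a10 and Crip1 had log2 differences of 2.01, 1.96 and 1.76. For all 5 the samples of the treatments did not overlap. On the lower side, the costimulatory ligand Cd86 was at 357, 880 and 314 CPM against 131 and 180 CPM (log2 difference -1.54 ± 0.62), without overlap, and Tubb4b, Ckb and Hras had log2 differences of -2.17, -1.76 and -2.18, also without overlap. Siglech had the largest difference of the 10, -2.93, with 19, 0 and 16 UMIs in vehicle samples, all of them in the 2 DCs with pDC genes, against 1 and 14 UMIs. Without the collagen members the log2 differences were 2.02 for Ahnak and -1.41 for Ckb, and Tubb4b had too few UMIs to be tested.

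Samples failed to overlap for 64 of 559 genes in the higher direction (11.4%) and for 44 in the lower (7.87%), or 19.3% in all. Of the 10 class II presentation genes tested, 8 had a positive log2 difference, with a median of 0.33 over the list against 0.01 over all genes tested, and 2 (Ciita and Ifi30) did not overlap. Summed over the 14 genes of the list, class II presentation was at 70324, 26015 and 55712 CPM in vehicle samples and at 56683 and 64782 CPM after Xevinapant, so the treatments overlapped and vehicle 2, with 2 DCs, stood lowest. Without the collagen members vehicle 3 was at 70234 CPM and Xevinapant 1 at 73092 CPM, and the treatments still overlapped. Over 8 ways to define the DCs the list was higher without overlap in 1. That definition required at least 0.1% class II UMIs and so selected on genes of the list itself. Of 12 class I and cross-presentation genes tested, 7 were positive (median 0.11) and none was free of overlap. Of 7 interferon response genes 2 were positive (median -0.12), of 7 NF-kB genes 2 (median -0.16, Nfkb1 higher without overlap at 357, 0 and 78.4 CPM against 581 and 392 CPM), of 4 costimulation and checkpoint genes 1 (median -1.12, Cd86 without overlap) and of 12 maturation genes 6 (median -0.03). All 5 hypoxia and glycolysis genes tested were positive (median 0.85), and 2 did not overlap. The 36 measured genes of that list summed to 3534, 12568 and 3764 CPM in vehicle samples against 6168 and 4586 CPM, with vehicle 2 highest and the treatments overlapping in all 8 DC definitions.

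Cell-cycle genes that could be tested shared 1 direction. All 8 tested genes, of 44 measured on the E2F target and cell cycle list, had a negative log2 difference (median -1.21). Of these, 5 did not overlap, against the 7.87% of all genes, and none was called. Several, such as Mcm6 at 454, 628 and 118 CPM against 112 and 89.9 CPM, reached the level needed for testing only in vehicle samples. The shared direction was thus partly set by which genes were tested. Top2a, the topoisomerase of dividing cells, was at 486, 377 and 588 CPM in vehicle samples and at 281 and 139 CPM after Xevinapant (-1.26 ± 0.55), and its log2 difference without the collagen members was -0.74. The 44 genes of the list summed to 8008, 6032 and 6822 CPM against 4312 and 3131 CPM. This separation rested on the collagen member of vehicle 3, which also held 226 UMIs of Cd74 and the class II genes. Without both collagen members vehicle 3 stood at 3584 CPM and Xevinapant 1 at 5348 CPM, and the treatments overlapped. Over 8 ways to define the DCs the list was lower without overlap in 4. DCs with at least 10 genes of the list detected were 3 of 7, 1 of 2 and 4 of 7 in vehicle samples and 3 of 22 and 7 of 24 in Xevinapant samples.

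Genes of dissociation stress, which handling of tissue can switch on, also separated the treatments. The 20 genes of that list summed to 3404, 1885 and 2862 CPM in vehicle samples and to 4124 and 3949 CPM after Xevinapant, and they were higher without overlap in 5 of the 8 definitions, without the collagen members among them. Of the gene lists summed over all DCs, only this one and the E2F list did not overlap, beside 19.3% of the single genes tested. The definitions reuse most of the same DCs, so their number is no independent support. Of 7 genes tested among the 20, 5 had a positive log2 difference. The transcription factors Jund (1.35) and Junb (1.71) were higher without overlap, beside 11.4% of all genes, while Btg2 (-0.71) was lower without overlap, beside 7.87%. Jund and Junb reached the level needed for testing only in Xevinapant samples, and Btg2 only in vehicle samples. Their directions were thus partly set by the filter. None was called, and the part of handling in the other differences was not tested. With 0 tumor UMIs allowed, which left 4, 1 and 4 DCs in vehicle samples and 18 and 17 in Xevinapant samples, the NF-kB list was at 2249, 1647 and 1649 CPM against 3704 and 3855 CPM. The make-up differed there too, with Ccr7 in 0 of 4, 0 of 1 and 1 of 4 DCs against 7 of 18 and 5 of 17, and the NF-kB list was highest in DCs with Ccr7. The part of the make-up in the NF-kB difference was not tested. The maturation, chemokine and chemokine receptor lists were also higher without overlap in that definition, and the C-type lectin list was lower. Over the 8 definitions the NF-kB, maturation and chemokine lists were higher without overlap in 1 each and the chemokine receptor list in 2. The C-type lectin list was lower without overlap in 1. With at least 3 markers required, the chemokine list was instead lower without overlap (2164, 10036 and 1977 CPM against 1629 and 1815 CPM), as was the costimulation and checkpoint list (3852, 15255 and 5393 CPM against 2375 and 3541 CPM).

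The targets of Xevinapant were sparse in DCs. Birc3 (ENSMUSG00000032000) had 5, 6 and 3 UMIs in vehicle samples and 18 and 24 after Xevinapant, or 162, 754 and 118 CPM against 169 and 196 CPM, so that the treatments overlapped. Birc2 (ENSMUSG00000057367) had 5, 5 and 2 UMIs against 8 and 6, or 162, 628 and 78.4 CPM against 75 and 49.1 CPM, and both Xevinapant samples were below all vehicle samples, on counts of at most 8. Xiap (ENSMUSG00000025860) had 2, 0 and 1 UMIs against 3 and 4. None of the 3 had enough UMIs to be tested. The 29 genes of the IAP and TNF receptor signaling list summed to 3080, 5278 and 3372 CPM against 3337 and 3654 CPM, with overlap.

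**Figure D4:**
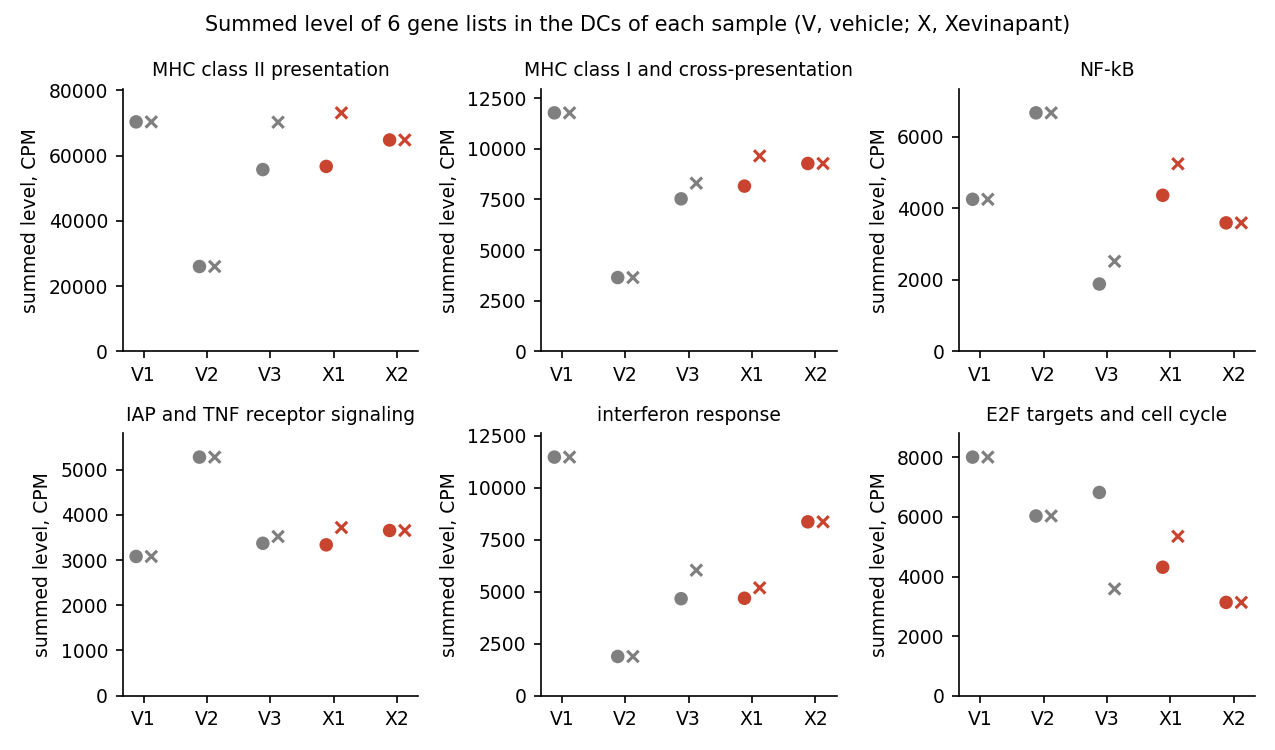
Each panel gives, for 1 gene list, the summed level in CPM (y axis, from 0) over the DCs of vehicle samples (grey) and Xevinapant samples (red); circles use all DCs and crosses leave out the 2 collagen members. In both of these sets the class II, class I, NF-kB, IAP and interferon lists overlap between treatments, and the circles of the E2F list do not, while its crosses do.

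Markers of other cell types in the DC sums varied by sample. The macrophage list was at 227, 503 and 12232 CPM in vehicle samples and at 5305 and 1684 CPM after Xevinapant, and without the collagen members it was at 629 CPM in vehicle 3 and 1933 CPM in Xevinapant 1. The microglia list, which includes Sparc, was at 357 to 1098 CPM in vehicle samples and at 7330 and 384 CPM after Xevinapant, and stood at 367 CPM in Xevinapant 1 without the collagen member. Tumor genes summed to 421 to 1529 CPM in vehicle and 441 to 600 CPM in Xevinapant samples, against 9693 CPM in tumor barcodes. Their part in the differences between treatments was not tested.

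The last comparison asked whether genes differed in their Xevinapant response between DCs and gated macrophages of the same samples. None of 8718 genes tested passed (edgeR's quasi-likelihood interaction test with Benjamini-Hochberg adjustment, a background of 0.0%), with 311 higher and 71 lower in DCs at an unadjusted p under 0.05, and DESeq2 called none, with 82 and 81. With library size alone as the normalization, edgeR had 136 higher and 202 lower. The balance of directions thus depended on the normalization. The smallest adjusted p was 0.0713, for Sept3, a septin of the cDC1 list, and Ramp3, a partner of the calcitonin receptor family. Sept3 had 5, 0 and 1 UMIs in vehicle DCs (162, 0 and 39.2 CPM) and 36 and 26 in Xevinapant DCs (337 and 213 CPM), the latter carried by 9 of 22 and 7 of 24, while macrophages averaged 23.4 and 8.31 CPM. Ramp3 was at 162, 503 and 39.2 CPM in vehicle DCs and at 422 and 180 CPM in Xevinapant DCs (5, 4, 1, 45 and 22 UMIs in 1, 1, 1, 4 and 3 DCs), so that DCs overlapped between treatments, while macrophages averaged 8.72 and 0.379 CPM. With the collagen members left out, both passed, at an adjusted p of 0.0314 each with log2 differences of 3.65 and 5.09, together with Tpm2 in the other direction, and without vehicle 1 Ramp3 alone passed. Across all 11 alternatives 0 to 3 genes passed.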

How the data were processed

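The deposited files were raw UMI counts per gene and barcode, which the authors made with Cell Ranger on mm10 from a probe-based fixed RNA assay (version 7.1.0 per the file headers, another version in the study's methods). The study's own cell filters and doublet removal were not applied in these files. The 4 matrices of the Xevinapant pool followed the labels, although their names carry the word vehicle. Barcodes were kept with at least 200 genes, no more than 10% mitochondrial UMIs and a ratio of log10 genes to log10 UMIs of at least 0.8. DC members and gene lists were chosen with earlier results of these data known.

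Matrices of a pool were joined where the difference of their tumor barcodes, thinned to 3000 UMIs, was below 1.5 times cell-sampling noise. Joined pairs were at 1.08 to 1.46 and all others at 2.76 to 5.09. This measure was chosen after a first one, on all barcodes at full depth, had been seen, in which the same pairs were at 1.46 to 2.36 and the others at 4.96 to 8.47.

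Shares were compared with exact permutation tests over samples. UMIs summed per sample were tested with edgeR 4.0.16 (quasi-likelihood, TMM, filterByExpr, Benjamini-Hochberg at 0.05) and DESeq2 1.42.0 in R 4.3.3, and the step was tested on simulated data. The planned minimum of 10 DCs per sample would have left no vehicle sample, so the fit with all samples is reported. Genes were named by a rule: list members, and the 5 with the smallest p in each direction. Clusters used scanpy 1.11.5 with 1000 variable genes. No doublet caller was used in the main results, and removing the highest Scrublet scores was an alternative. Intervals are exact and cover counting error only. Coordinates and promoters are RefSeq GRCm38.p6.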

Additional observations from a re-analysis of the deposited data

How the results depend on the processing

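Of 15 alternatives, all kept the DC share of barcodes higher after Xevinapant, with differences of 0.0649 to 0.197 percentage points (0.107 to 0.197 with a sample left out) and no overlap in 14. With each matrix counted as 1 sample the difference was 0.144 (exact permutation p = 0.0286), which again counts joined matrices as independent. The share of immune barcodes kept its direction in 14 of 14, at 0.151 to 1.35 percentage points, without overlap in 8. Shares of subsets turned. The cDC1 difference was -0.298 points by matrix and -5.06 to 30.7 with a sample left out. The cDC2 difference was -6.57 with at least 3 markers, -3.79 without macrophage-marked DCs, -0.397 without collagen members, -4.17 with markers other than Zbtb46, and -6.28 to 8.01 with a sample left out. The Ccr7 difference was 20.6 with thinned barcodes, 25.8 with 0 tumor UMIs, 4.98 by matrix, and -10.7 to 5.19 with a sample left out. The cause was not tested.

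Without a filter on low counts, edgeR called 11 genes higher and 6 lower. With a vehicle sample left out it called 0 to 1 higher (Lyz2 without vehicle 3). With a Xevinapant sample left out, that group held 1 sample, so only effect sizes are given. Without Xevinapant 2 the log2 differences of Igfbp7, Ccl1 and Igfbp4 were 6.71, 7.81 and 7.24. These rested on 177, 65 and 257 UMIs in Xevinapant 1, with at most 1 UMI of each in any other sample. A different response of DCs and macrophages was called for 3 genes with the collagen members left out and for 0 to 1 with a vehicle sample left out (Ramp3 without vehicle 1). These sets without collagen members, without a limit on tumor UMIs, with at least 0.1% class II UMIs or without Zbtb46 were chosen after seeing the data. The 10 genes named for their p kept their direction wherever fitted, but not their size. They were picked from these same sums, and the alternatives reused most of the same DCs, so the kept direction is no support for them. Some, such as Ahnak and Cd86, reached the level needed for testing only in the group where they were high. With a sample left out, the log2 difference of Siglech was -1.87 without Xevinapant 1 and -5.06 without Xevinapant 2, that of Tubb4b -1.21 and of Hras -1.41 without vehicle 2, and that of Anxa2 3.15 without vehicle 1. Ahnak was at 1.03 with markers other than Zbtb46. No paired analysis was possible because the samples carry no number that links the pools. Low DC numbers in vehicle limit every gene comparison.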

Other observations

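Other programmes also differed in level between the marker subsets, described here without a test. The 32 measured interferon response genes summed to 9228 CPM in DCs with Xcr1 or Clec9a, 6379 CPM in those with Cd209a and 4067 CPM in those with Ccr7. Their medians per DC were closer, at 5717, 4411 and 3711 CPM in the same order. The highest DC held 32860.5 CPM with Xcr1 or Clec9a and 31669.5 CPM with Cd209a. C-type lectins and uptake receptors, which bind microbial sugars and cell debris, summed to 6102 CPM with Cd209a against 1858 and 1559 CPM, and 18 of the 27 genes were highest with Cd209a. The list includes Cd209a, which defines that subset and reached 1040 CPM in it, and Clec9a, which the subset lacks by definition. Part of this contrast was thus set by the selection. At least 10 genes of the E2F list were detected in 2 of 20 DCs with Ccr7, 9 of 28 with Xcr1 or Clec9a and 5 of 10 with Cd209a, at median depths of 2833.5, 3850.5 and 3722 UMIs. The median level of that list per DC was 1934, 1853 and 2447 CPM without the collagen members, so that a typical DC with Ccr7 was not lower than one with Xcr1 or Clec9a. Hypoxia and glycolysis genes summed to 5196 CPM over all DCs, against 19924 CPM in gated macrophages and 18402 CPM in gated monocytes.

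Barcodes outside the DC rule held DC markers too. Of 182 barcodes with at least 2 markers, 43 failed only because they had more than 3 tumor UMIs, 19 of them in vehicle 3. Their median depth was 32213 UMIs against 3850.5 in DCs, and Cd74, H2-Aa, H2-Ab1 and H2-Eb1 together held 7001 CPM. A further 8 failed only through an exclusion gene, 7 through P2ry12 and 1 through Cldn5.

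Some genes called without a filter on low counts came from 1 sample. Xcl1, the ligand of Xcr1, had 53 UMIs in Xevinapant 1 and none elsewhere, and Ccl1 had 65 there. The muscle genes Tnnc2, Acta1 and Myh4 had 16, 15 and 15 UMIs in vehicle 3 and none in the other samples.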
